A study of Mus musculus with 24 samples.

Results

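The genes described here are 36 genes of the cell cycle, chosen by name: 15 that act in DNA replication and 21 that act in mitosis. They were found in the count tables of the 2 cell lines by dropping the version from each transcript identifier, taking the gene symbol from the GENCODE M21 annotation of the mouse build GRCm38, and summing reads per gene. All 36 had reads in C2C12, among 15439 genes with reads, and 34 had reads in NSC34, among 7557. Over both lines 15839 genes had reads.

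C2C12 is a line of mouse myoblasts, the precursors of muscle fibres, and NSC34 is a mouse line with features of motor neurons. Each line was sampled from co-cultures of both lines kept for 3 days and from control cultures without the other line, with 6 libraries per line and condition, 24 in all, and every group carries the WT label for genotype. The Nanopore MinION was used to read total RNA. Neither the means of separating the lines at harvest nor whether the 6 libraries of a group came from separate cultures is given in the labels, so p-values measure the spread between these libraries, which may be technical.

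Depth sets what can be seen of these genes. C2C12 libraries held 143502 to 547071 reads in co-culture and 121154 to 658075 in control. NSC34 libraries held 2807 to 30314 reads in co-culture and 88 to 4624 in control, and co-culture library 2 held 55.1% of all NSC34 co-culture reads. Of 12 muscle markers all 12 had reads in C2C12, together 2.62% to 3.04% of a library in co-culture and 2.22% to 2.72% in control, while in NSC34 they had 20 of 55007 reads in co-culture and 4 of 15858 in control, most of them on Chrna1, a subunit of the acetylcholine receptor. Of 12 neuronal markers 8 had reads in NSC34 co-cultures, together 0.102% of the reads, and 7 in NSC34 controls, 0.114%; Prph, Tubb3 and Isl1 were among them, Stmn2, Nefm and Mnx1 were at 0 in both groups, and Chat, the acetylcholine-making enzyme, had 1 read in co-culture and 0 in control. In C2C12 the neuronal markers took 0.0194% of co-culture reads and 0.0218% of control reads, mostly on Stmn2 (193 reads in co-culture and 176 in control) and Tubb3, so Stmn2 goes against the labelled lines, with Chat, Isl1 and Mnx1 at 0 in both groups.

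A dividing cell copies its DNA in S phase and parts the copies in mitosis. Replication genes supply the helicase that opens DNA (the Mcm genes), the clamp that holds polymerases on it (Pcna) and the enzymes that make nucleotides (Rrm1, Rrm2, Tyms, Tk1), and E2F factors are known to drive many of them. Mitosis genes condense chromosomes, build the spindle and time the exit from division, and many carry a CHR (cell cycle genes homology region) and CCAAT boxes in their promoters. Myoblasts leave the cell cycle for good when they differentiate to form muscle fibres, and both gene groups are switched off then. In RNA from bulk cultures, fewer dividing cells and less RNA per dividing cell cannot be told apart.

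Promoter windows of 3 genes show the motifs that part the 2 groups: Top2a, the gene that passed the test in C2C12; Cdk1, the kinase that drives mitosis; and Mcm6, a helicase subunit with the most E2F matches among the 30 of the 36 genes that had a window. Each window runs 5′ to 3′ over 300 bases of GRCm38.p6, from 250 before the start of the gene to 50 after it, as RefSeq gives it. All 3 are on the minus strand, at chr11:99024140-99024439 (Top2a), chr10:69352863-69353162 (Cdk1) and chr1:128359656-128359955 (Mcm6). Capitals mark matches to the CHR (TTTGAA or TTCGAA), the CCAAT box (CCAAT, which reads ATTGG on the other strand) and an E2F site (TTTCCCGC, TTTCGCGC, TTTGCCGC or TTTGGCGC), searched on both strands.
Top2a: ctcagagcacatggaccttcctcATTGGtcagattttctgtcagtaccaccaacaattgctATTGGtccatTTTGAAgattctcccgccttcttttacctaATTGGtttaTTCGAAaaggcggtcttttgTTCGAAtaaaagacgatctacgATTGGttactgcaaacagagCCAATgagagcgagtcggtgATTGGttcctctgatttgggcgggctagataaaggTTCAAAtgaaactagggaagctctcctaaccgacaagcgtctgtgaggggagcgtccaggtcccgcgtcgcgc
Cdk1: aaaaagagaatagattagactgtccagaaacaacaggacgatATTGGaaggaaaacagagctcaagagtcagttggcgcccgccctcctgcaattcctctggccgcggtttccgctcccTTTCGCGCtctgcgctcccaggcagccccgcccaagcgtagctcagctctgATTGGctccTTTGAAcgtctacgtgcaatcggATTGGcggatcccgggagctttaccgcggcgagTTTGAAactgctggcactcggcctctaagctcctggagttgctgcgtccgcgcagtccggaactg
Mcm6: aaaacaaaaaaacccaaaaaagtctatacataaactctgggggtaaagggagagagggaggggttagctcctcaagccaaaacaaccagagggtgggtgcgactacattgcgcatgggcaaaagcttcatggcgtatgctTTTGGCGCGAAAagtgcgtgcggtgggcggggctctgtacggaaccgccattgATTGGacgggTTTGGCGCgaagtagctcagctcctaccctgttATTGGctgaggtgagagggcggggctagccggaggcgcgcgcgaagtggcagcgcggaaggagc
The Top2a window held 4 CHR matches, the most among the 30 genes, 6 CCAAT matches and no E2F match. The Cdk1 window held 2 CHR, 3 CCAAT and 1 E2F match, and no other mitosis window of the 36 genes held an E2F match. The Mcm6 window held no CHR, 2 CCAAT and 3 E2F matches, the first 2 of which overlap on opposite strands.

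RefSeq windows were at hand for 30 of the 36 genes, 13 of replication and 17 of mitosis. A CHR match stood in 14 of the 17 mitosis windows, in 2 of the 13 replication windows and in 21.66% of all 27025 genes with a window. A CCAAT box stood in 16 of 17, 8 of 13 and 41.06%, and an E2F match in 1 of 17, 6 of 13 and 2.605%. Genes of the same 2 processes outside the 36 had a similar split: 35 of 49 other mitosis genes and 11 of 47 other replication genes held a CHR match, and 4 of 49 and 16 of 47 an E2F match. Birc5, Tk1, Tyms and Ccne1 had none of the 3 motifs in these windows. These are matches of letters, not measured binding.

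**Figure D1:**
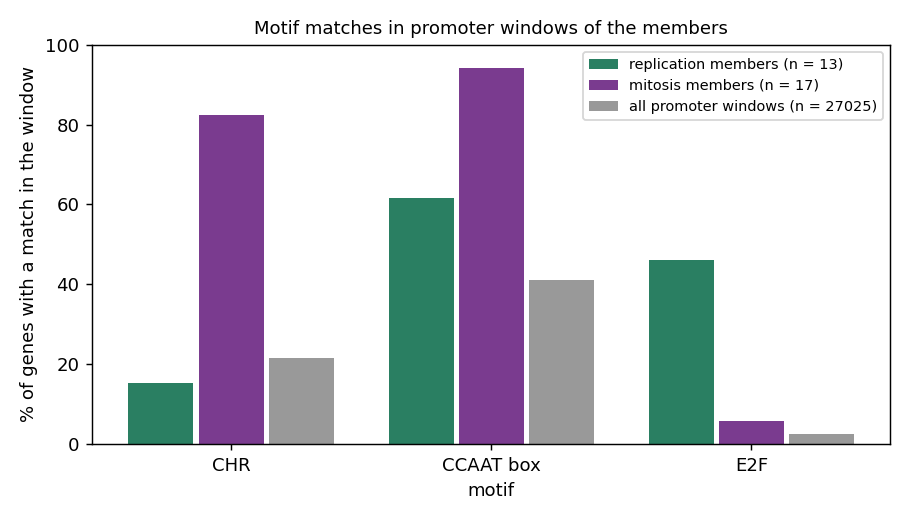
Share of genes (%) whose 300-base promoter window holds a match to the CHR, the CCAAT box or the E2F words, for the replication genes (13 windows), the mitosis genes (17 windows) and all 27025 genes with a window. CHR and CCAAT matches are most frequent among mitosis genes and E2F matches among replication genes.

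In C2C12 the 36 genes took a smaller part of the reads in co-culture than in control, in both groups of genes. Replication genes made up 0.0359% ± 0.0027 of reads in co-culture and 0.0460% ± 0.0040 in control (SD, n = 6 libraries each). The co-cultured libraries ranged between 0.0327% and 0.0385% and the controls between 0.0417% and 0.0503%, with no overlap. Mitosis genes made up 0.0592% ± 0.0067 in co-culture and 0.0746% ± 0.0044 in control, with ranges of 0.0502% to 0.0669% in co-culture and 0.0704% to 0.0792% in control, again apart. Without Top2a the mitosis shares overlapped, at 0.0474% to 0.0626% in co-culture and 0.0577% to 0.0726% in control. Replication genes held 37.4% of the reads of the 36 genes in co-culture (95% exact interval 35.1 to 39.7) and 37.1% in control (34.9 to 39.4), so the balance between the 2 groups was nearly the same. No test is given for these shares, since the genes were listed with earlier results of these data known.

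**Figure D2:**
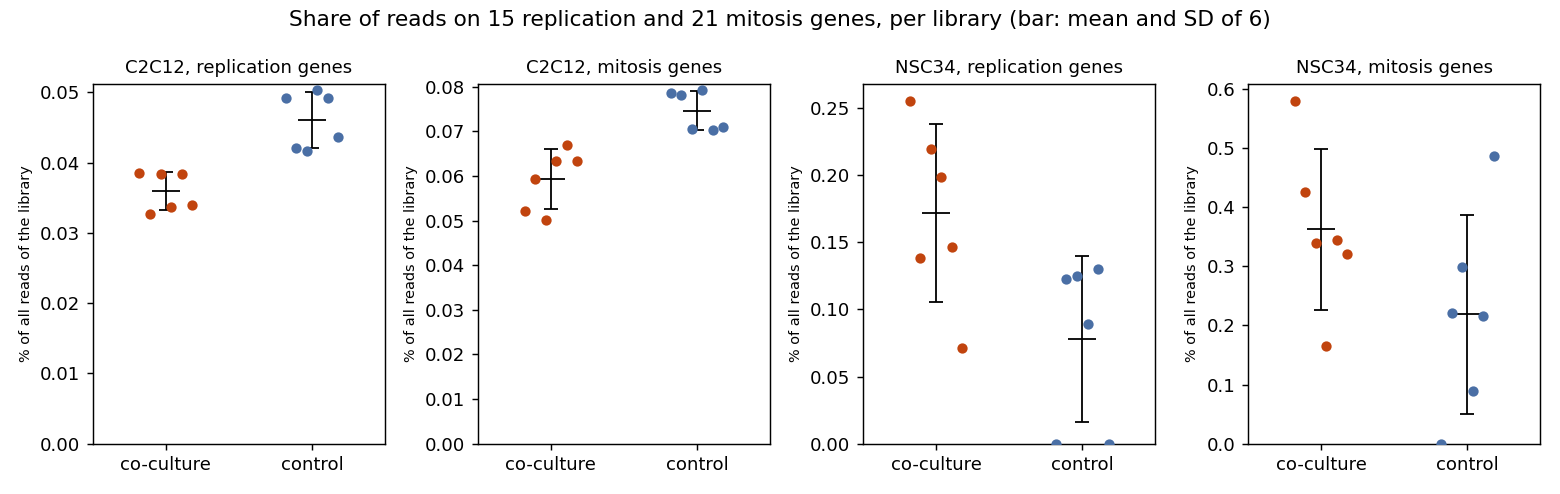
Share of all reads of a library (%) on the 15 replication genes and on the 21 mitosis genes, in C2C12 and NSC34, with 1 point per library and the mean and SD of 6. In C2C12 every co-cultured library lies under every control in both panels; in NSC34 the groups overlap, and the scale is several times higher.

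Most muscle markers lay the other way in the same C2C12 libraries. Of 11 tested, 9 had a fold change above 0, Myh3 (log2 fold change -0.37) and Actc1 (-0.05) were below 0, and 3 passed the test upward, where 0.817% of all tested genes did: Mb, the oxygen store of muscle (log2 fold change 0.73, edgeR adjusted p = 3.4e-05), Ckm, muscle creatine kinase (0.64, 0.0027), and Myog, a factor of early muscle differentiation (0.43, 0.0457). The count passed was 2 with limma-voom, with the length trend removed and with the 2 shallowest controls left out. These markers were listed with earlier results of these data known, so no separate support is drawn from the count. Myog had 5451 reads in co-culture and 3530 in control. What part this has in the values of the cell cycle genes was not tested.

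Gene by gene, 9 of the 36 had enough reads for the edgeR quasi-likelihood test in C2C12, which ran on 2570 genes. Of these 9, 1 was lower in co-culture at a Benjamini-Hochberg adjusted p under 0.05 and 0 were higher; over all tested genes 0.623% were called lower and 0.817% higher, and 1.44% either way. The fold changes of 8 of the 9 were below 0, with a median log2 fold change of -0.14 against 0.00 over all tested genes. No gene of the 9 had its co-cultured and control libraries fully apart, which 1.71% of the tested genes had.

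Top2a (ENSMUSG00000020914, chr11:98992943-99024189, minus strand), the topoisomerase that untangles chromosomes before they part, was the gene that passed. Its level, as CPM (counts scaled by all reads of the library), was 39.9, 54.8, 27.9, 26.4, 42.7 and 56.0 in co-cultured libraries 1 to 6 and 175, 128, 129, 66.0, 61.0 and 32.5 in controls 1 to 6, from 4 to 30 reads in co-culture and 5 to 84 in control. The co-cultured libraries lay close together, while controls 1 to 3 stood far above controls 4 to 6. All co-cultured libraries were below 5 of the 6 controls, and only control 6, with 5 reads, fell among them. The mean was 41.3 ± 12.7 CPM in co-culture and 98.4 ± 53.7 CPM in control (SD, n = 6). Top2a thus fell to 0.44 of its control level (log2 fold change -1.18, SE 0.29, 95% interval -1.80 to -0.57; edgeR adjusted p = 0.0457). Reads of its main protein-coding transcript, Top2a-201, were 53 in co-culture and 112 in control, and those of the short non-coding Top2a-202 were 22 in co-culture and 38 in control, while co-culture had the larger total of reads. Neither passed in a fit of transcripts with at least 10 reads (log2 fold change -1.22, edgeR adjusted p = 0.506, and -0.94, 0.902). Controls 4 to 6 had 41.3, 32.8 and 19.5 CPM of Top2a-201, beside 0 to 41.0 CPM in the co-cultured libraries.

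The Top2a call lies near the threshold. With 1 library left out it held without control 4, 5 or 6 (adjusted p = 0.0442, 0.0237 and 0.011) and was lost without any other one (0.0512 to 0.131), while the log2 fold change stayed between -1.33 and -1.03. It was also lost with limma-voom (0.129), with the replicate number as a block (0.0645), with the 2 shallowest controls left out (0.100), and when the trend of fold change with transcript length was removed (0.0657). Over 2561 genes the fold change in C2C12 went down with transcript length (Spearman rho = -0.28 across genes, which share their libraries and are not independent); Top2a is longer than 82.9% of them.

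Of the nucleotide enzymes, Rrm2, the small subunit of ribonucleotide reductase, had 79.8, 56.7, 76.7, 59.4, 76.9 and 52.2 CPM in co-culture and 87.4, 91.2, 84.3, 140, 98.5 and 52.1 CPM in control. All 6 co-cultured libraries were under the control median of 89.3 CPM, and control 6 was as low as the lowest of them (log2 fold change -0.44, SE 0.21; edgeR adjusted p = 0.331). Tk1, thymidine kinase, which salvages thymidine, had 25.6, 42.0, 76.7, 0, 34.2 and 63.4 CPM in co-culture and 63.6, 42.5, 62.1, 99.0, 70.4 and 58.6 CPM in control. Co-culture library 4 had no Tk1 read among 151424, which allows up to 19.8 CPM, and 4 of 6 co-cultured libraries were below every control (log2 fold change -0.59, SE 0.35; adjusted p = 0.486). Rrm1, the large reductase subunit, ranged over 13.9 to 31.1 CPM in co-culture (median 22.7) and 18.8 to 44.4 CPM in control (median 27.5). Tyms, which makes thymidylate, ranged over 22.4 to 59.8 CPM in co-culture (median 34.6) and 22.2 to 55.6 CPM in control (median 32.8), so its groups lay on top of each other.

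Among the helicase genes Mcm4 had the most reads, with 82.6, 34.7, 69.7, 66.0, 82.6 and 56.0 CPM in co-culture and 79.4, 63.8, 97.6, 82.5, 122 and 91.1 CPM in control. All 6 co-cultured libraries were under the control median of 86.8 CPM and 2 were under every control (log2 fold change -0.44, SE 0.24; edgeR adjusted p = 0.413). Mcm2 ranged over 13.2 to 31.1 CPM in co-culture (median 23.3) and 17.8 to 33.0 CPM in control (median 23.6). Mcm7 ranged over 11.2 to 19.8 CPM in co-culture (median 15.9) and 0 to 79.4 CPM in control (median 18.02), the highest control being a single library. Mcm6 had 14 reads in co-culture and 8 in control, with medians of 4.73 CPM in co-culture and 4.50 CPM in control. These 4 helicase genes did not share 1 direction: the medians of Mcm4 and Mcm7 were lower in co-culture and that of Mcm6 higher, while Mcm2 had nearly equal medians and a log2 fold change of 0.16 (at least 10 reads, 95% interval -0.54 to 0.85); none passed the test.

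Pcna, the sliding clamp, showed nearly the same level in both conditions. It had 42.7, 51.2, 48.8, 85.9, 59.8 and 59.7 CPM in co-culture and 55.6, 54.7, 39.9, 41.3, 79.7 and 97.6 CPM in control, with fully overlapping groups (log2 fold change -0.10, 95% interval -0.60 to 0.40; edgeR adjusted p = 0.932). The cyclin E gene Ccne2, which helps start S phase, had 14 reads in co-culture and 13 in control, with medians of 6.15 CPM in co-culture (0 to 22.4) and 5.60 CPM in control (0 to 13.7).

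Apart from Top2a, the tested mitosis genes had fold changes near 0 and did not pass. Hmgb2, a chromatin protein of dividing cells, had 79.8, 104, 69.7, 92.5, 120 and 67.2 CPM in co-culture and 119, 105, 84.3, 82.5, 113 and 104 CPM in control. Of the 6 co-cultured libraries 3 lay under every control, 2 lay among the controls and library 5 was just above the highest of them (log2 fold change -0.14, 95% interval -0.52 to 0.24; edgeR adjusted p = 0.844). Birc5, the survivin subunit of the chromosomal passenger complex, had 65.5, 47.5, 55.7, 72.6, 62.6 and 22.4 CPM in co-culture and 95.3, 51.7, 35.5, 116, 56.3 and 26.0 CPM in control (log2 fold change -0.10, 95% interval -0.75 to 0.54; adjusted p = 0.950). Cenpf, a very long kinetochore gene with the most reads of the 36, had 125, 146, 167, 158, 228 and 235 CPM in co-culture and 119, 190, 120, 248, 188 and 234 CPM in control (log2 fold change -0.03, 95% interval -0.44 to 0.37; adjusted p = 0.974). For both of these genes the groups overlapped over nearly their whole range, and leaving out single libraries turned the sign.

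Ube2c, the ubiquitin-conjugating enzyme that marks mitotic cyclins for breakdown, was the tested gene with a fold change above 0. It had 54.1, 58.5, 41.8, 99.1, 54.1 and 93.3 CPM in co-culture and 55.6, 66.9, 53.3, 41.3, 75.1 and 58.6 CPM in control (log2 fold change 0.11, 95% interval -0.36 to 0.57; edgeR adjusted p = 0.948). Its transcripts differed: Ube2c-202 had 78 reads in co-culture and 84 in control (log2 fold change -0.18), while Ube2c-201 had 38 in co-culture and 9 in control, all 9 of the control reads in libraries 5 and 6. Exons of Ube2c-201 share 592 of their 2191 bases with exons of Tnnc2, a troponin gene of fast muscle on the opposite strand with 15801 reads in C2C12, and whether reads were counted by strand is not given in the sources used here. Whether reads of Tnnc2 were counted for Ube2c-201 was not tested, and the gene total of Ube2c in C2C12 is uncertain for that reason. Other members also share exon bases with genes on the opposite strand that had C2C12 reads. These are Kif20a with Cdc23 (44 reads), Ccna2 with Exosc9 (122) and Ccne2 with Ints8 (24). Mcm7 overlaps Cops6 (437) and Ap4m1 (29), Cdc20 overlaps Elovl1 (238) and Tk1 overlaps Afmid (9). Their levels carry the same untested limit.

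**Figure D3:**
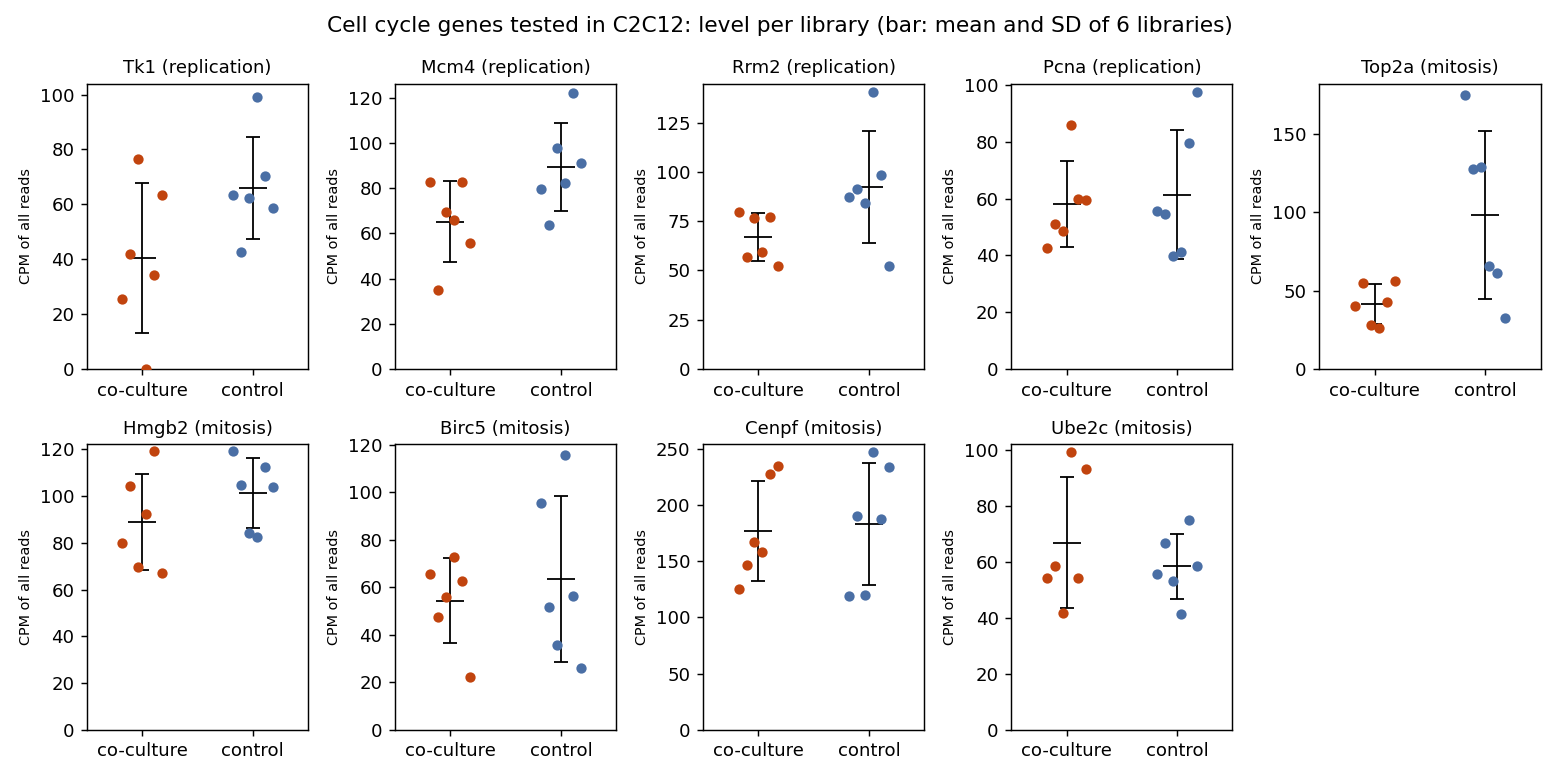
Level (CPM of all reads) of the 9 tested genes in each C2C12 library, with the mean and SD of 6. In Top2a controls 1 to 3 stand at 128 to 175 CPM, above all co-cultured libraries (26.4 to 56.0 CPM); in the other panels the groups overlap over more of their range.

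The mitotic kinases and cyclins had fewer reads. Cdk1 ranged over 17.1 to 66.0 CPM in co-culture (median 37.3) and 35.5 to 66.0 CPM in control (median 56.3), with 3 co-cultured libraries under every control. Its partner Ccnb1, a B-type cyclin, ranged over 6.60 to 29.2 CPM in co-culture (median 14.4) and 4.69 to 44.4 CPM in control (median 24.4). Ccnb2, the other one, ranged over 0 to 29.8 CPM in co-culture (median 15.9) and 7.94 to 35.5 CPM in control (median 26.9). Ccna2, cyclin A, had 10 reads in co-culture and 14 in control with medians of 6.15 CPM in co-culture (0 to 11.4) and 7.77 CPM in control (0 to 17.8). All 4 had a lower median in co-culture with overlapping groups. Plk1, a kinase of mitotic entry, ranged over 0 to 9.14 CPM in co-culture (median 4.71) and 0 to 31.8 CPM in control (median 14.9), with every co-cultured library under the control median. Aurkb, the kinase of the passenger complex, ranged over 3.73 to 19.8 CPM in co-culture (median 7.76) and 3.04 to 22.2 CPM in control (median 12.1).

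Spindle and kinetochore genes were alike in depth. Mki67, which coats mitotic chromosomes and is the usual marker of proliferation, ranged over 2.85 to 20.9 CPM in co-culture (median 5.17) and 8.25 to 18.2 CPM in control (median 13.7), with 4 of 6 co-cultured libraries under every control. Tpx2, a spindle assembly factor, ranged over 2.85 to 13.9 CPM in co-culture (median 9.25) and 6.51 to 24.8 CPM in control (median 12.4). Cenpe, a kinetochore motor, ranged over 0 to 17.1 CPM in co-culture (median 5.59) and 0 to 16.5 CPM in control (median 11.2). Kif20a, a motor of cell division, had 18 reads in co-culture and 12 in control, with medians of 6.15 CPM in co-culture (0 to 29.8) and 8.49 CPM in control (0 to 24.8). For the first 3 of these the co-culture median was the lower one, while for Kif20a the reads and the medians pointed opposite ways. Cenpa, the histone of centromeres, had medians of 25.2 CPM in co-culture (11.2 to 34.8) and 25.7 CPM in control (0 to 32.8). Cdc20, an activator of the anaphase-promoting complex, had medians of 14.2 CPM in co-culture (0 to 18.7) and 15.4 CPM in control (0 to 26.0), so both were nearly level.

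Over the 27 genes with at least 20 C2C12 reads, Top2a, Mcm4, Rrm2 and Plk1 had all 6 co-cultured libraries under the control median, as 10.6% of the 8381 genes with that many reads had, and 0 had all 6 above it. The other 9 genes had 5 to 17 reads each. Bub1, a kinase of the spindle checkpoint, had 0 reads in co-culture among 1812360, which allows up to 1.66 CPM at 3 reads (95% exact upper limit 2.04 CPM). It had 8 reads in 3 control libraries, 5.34 CPM of the pooled control reads (95% exact interval 2.31 to 10.5). Kif11, the motor that parts the spindle poles, had 3 reads in co-culture and 10 in control. Cdt1, which loads the helicase, had 4 in co-culture and 1 in control. The helicase gene Mcm3 had 7 reads in co-culture and 10 in control, and Mcm5 had 6 in each. Ccne1, the other cyclin E gene, had 5 in co-culture and 11 in control, and Cdc6, a helicase loader, 6 in co-culture and 5 in control. The checkpoint gene Bub1b had 5 in co-culture and 6 in control, and Aurka, a kinase of spindle poles, 7 in co-culture and 10 in control.

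With the filter lowered to 10 reads in total, 34 of the genes entered a fit of 10108 genes, in which 0.564% were called and 0.257% were called lower. Top2a was again the gene that passed (log2 fold change -1.11, edgeR adjusted p = 0.0318). Of the 34 fold changes 25, or 73.5%, were below 0, against 48.9% over all genes of that fit. The trend of fold change with transcript length was not removed at this filter or with no filter. Under the stricter filter with that trend removed, 7 of 9 were below 0, against 53.2% of all tested genes. The mitosis genes had a median log2 fold change of -0.41 with 16 of 20 below 0, the replication genes -0.16 with 9 of 14 below 0, and all genes 0.01. Apart from Top2a, the lowest were Kif11 (-1.65, adjusted p = 0.588), Ccne1 (-1.20, 0.739), Plk1 (-1.02, 0.702) and Mki67 (-0.93, 0.632), and the highest were Mcm6 (0.53, 0.900) and Kif20a (0.39, 0.921), and the intervals of these 6 span 0. With no filter all 36 could be fitted, in a fit with 0.687% of 15439 genes called: 26 were below 0, with a median of -0.41 for mitosis and -0.08 for replication genes.

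**Figure D4:**
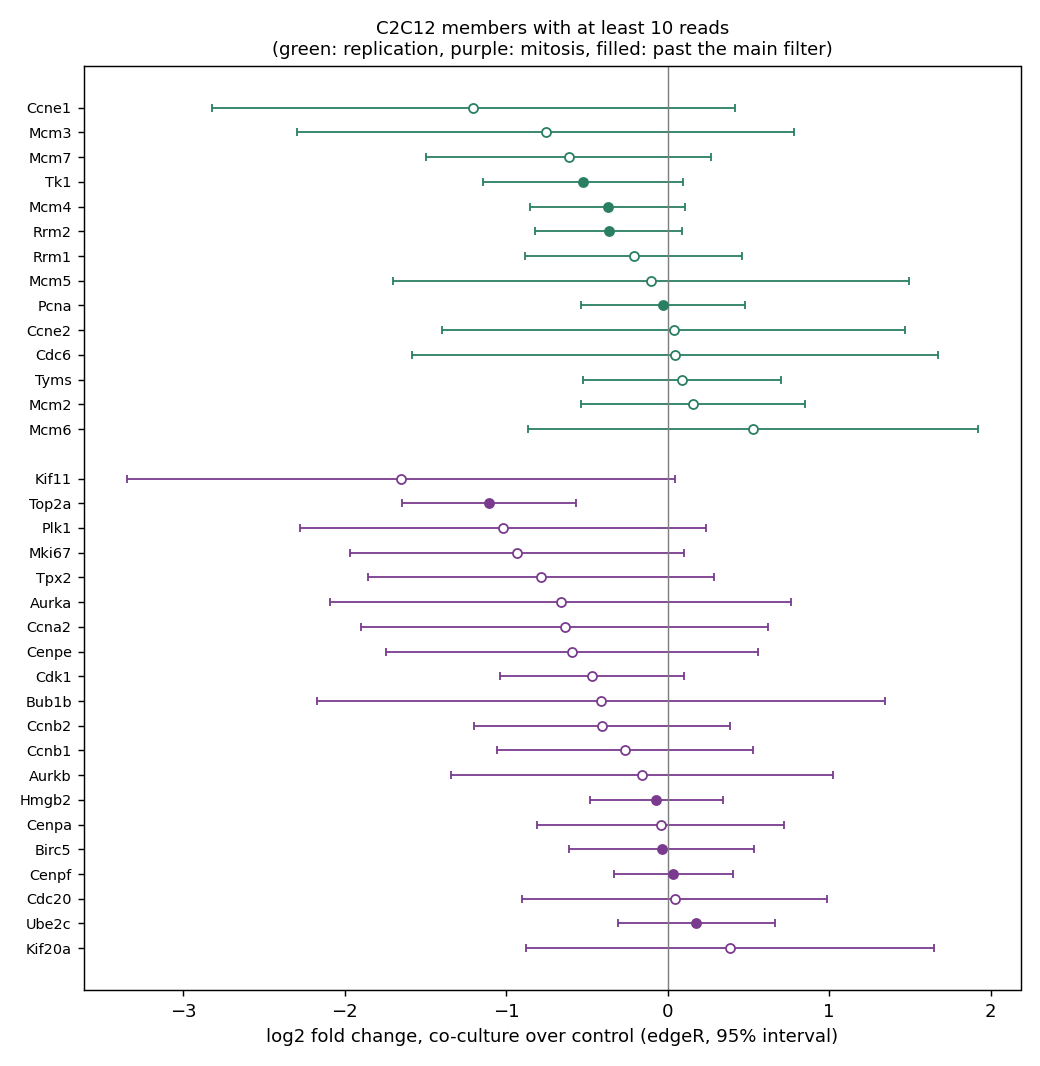
Log2 fold change (co-culture over control, 95% interval, edgeR) of the 34 genes with at least 10 reads in C2C12, replication genes above mitosis genes; filled points are the 9 genes that also passed the stricter filter. Top2a is the gene that passed the test, and 25 of 34 points lie left of 0.

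Genes of the 2 processes outside the 36 were listed as well. In the C2C12 fit with no filter 50 of 60 other mitosis genes were below 0 (median log2 fold change -0.41) and 38 of 61 other replication genes (median -0.25), against 49.6% of all genes. Under the stricter filter 7 of 8 other mitosis genes were below 0 (median -0.32) but 3 of 6 other replication genes (median -0.03), and 0 of either passed. An unadjusted edgeR p under 0.05 was found for 3 and 2 of them, and for 378 of all 2570 tested genes. With the length trend removed, 1 of the 8 other mitosis genes and 0 of the 6 other replication genes were called lower, as were 15 of all 2570 genes. Without that correction H2afz, a histone variant, came nearest among the other mitosis genes. It had 425 to 575 CPM in co-culture (median 514) and 508 to 704 CPM in control (median 660), with a log2 fold change of -0.33 (adjusted p = 0.0851 in edgeR). Bub3, a checkpoint protein, was the 1 of the 8 above 0 (0.22, adjusted p = 0.748), with medians of 77.7 CPM in co-culture and 63.3 CPM in control. Among other replication genes Dut, which keeps uracil out of DNA, had medians of 58.0 CPM in co-culture and 84.2 CPM in control (-0.66, adjusted p = 0.189). Pola1, the catalytic subunit of the polymerase that starts each strand, had 111 CPM in co-culture and 87.1 CPM in control (0.24, adjusted p = 0.599).

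Levels of different genes are set side by side here per kilobase of mean transcript length; whether the counts of this assay scale with length was not tested, and Cenpf, a very long transcript, is the gene whose place depends most on that division. By pooled CPM without the division, the first of the 9 tested genes were Cenpf (174), Hmgb2 (93.2) and Rrm2 (66.2) in co-culture. In control they were Cenpf (182), Top2a (108) and Hmgb2 (102), so the orders below hold only under that scaling. In pooled C2C12 co-cultures the order among the 9 tested genes began with Ube2c at 51.5, Birc5 at 44.7, Pcna at 36.4 and Hmgb2 at 35.5 CPM per kilobase, then Rrm2 at 30.3, Tk1 at 27.6, Mcm4 at 17.2 and Cenpf at 15.9, and Top2a came last at 11.6. Ube2c-202 alone, without the reads of Ube2c-201, was at 44.5 CPM per kilobase in co-culture and 58.0 in control. In pooled controls Ube2c was first again, followed by Birc5 at 47.3, Rrm2 at 41.6, Tk1 at 39.9, Pcna at 39.2 and Hmgb2 at 38.9 CPM per kilobase, then Top2a at 27.6 and Mcm4 at 23.1. Cenpf, first by reads in both conditions, was last of the 9 in control at 16.7 CPM per kilobase. Many neighbours in these orders lie closer together than single libraries of 1 gene do, and no test was made between genes.

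In NSC34 the same genes took a larger share of reads in co-culture than in control, with overlap and few reads. All 36 genes made up 0.535% ± 0.169 of reads in co-culture and 0.296% ± 0.178 in control (SD, n = 6), with ranges of 0.365% to 0.835% in co-culture and 0% to 0.487% in control. Replication genes made up 0.172% ± 0.066 in co-culture and 0.0777% ± 0.0619 in control, and mitosis genes 0.363% ± 0.136 in co-culture and 0.219% ± 0.169 in control. The lowest control had 88 reads and none on these genes. In the pooled reads the 36 genes had 304 of 55007 in co-culture, 0.553% (95% exact interval 0.492 to 0.618), and 55 of 15858 in control, 0.347% (0.261 to 0.451), and without co-culture library 2 the co-culture share was 0.539%. Intervals and limits of this kind cover counting error only.

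No test could be had for these genes in NSC34 at the filter used for C2C12: 49 genes passed it, none of the 36 among them, and 0 of the 49, 0%, were called (1 had an unadjusted p under 0.05 by edgeR and 1 by DESeq2). Of the 34 genes with reads, 28 had fewer than 20. Cdt1 and Bub1 had none in NSC34.

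Tk1 had 4, 12, 3, 2, 2 and 1 reads in NSC34 co-cultures 1 to 6 and 0, 1, 1, 0, 1 and 0 in controls 1 to 6. In levels this was 928, 396, 599, 663, 209 and 356 CPM in co-culture and 0, 245, 249, 0, 216 and 0 CPM in control, so 5 of 6 co-cultured libraries lay above every control. Cdk1 had 2, 13, 2, 2, 2 and 1 reads in co-culture and 0, 1, 2, 0, 0 and 0 in control, with medians of 414 CPM in co-culture and 0 in control, and its groups overlapped. Birc5 had 1, 12, 2, 0, 5 and 0 reads in co-culture and 0, 2, 0, 0, 0 and 1 in control. Cenpf had 4, 13, 1, 0, 1 and 2 reads in co-culture and 0, 1, 2, 0, 1 and 0 in control. Mcm4 had 2, 7, 2, 1, 3 and 0 reads in co-culture and 0, 1, 2, 1, 1 and 0 in control, with medians of 323 CPM in co-culture and 231 CPM in control. In each of these 4 genes single libraries of both groups were at 0 or within a few reads of it, and co-culture library 2 gave the most reads.

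Hmgb2 was the member with the most reads in NSC34: 6, 43, 6, 3, 8 and 2 in co-culture and 0, 1, 4, 1, 4 and 3 in control. Its levels were 1392, 1418, 1199, 994, 837 and 713 CPM in co-culture and 0, 245, 998, 447, 865 and 3650 CPM in control. The highest control value rests on 3 of 822 reads. The remaining controls lay under or among the co-cultured libraries.

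With the filter lowered to 10 reads in total, 1109 NSC34 genes could be fitted, of which 0.631% were called, and 11 of the 36 were among them: Mcm4, Rrm1, Tyms, Tk1, Cdk1, Ccnb1, Plk1, Birc5, Cenpf, Ube2c and Hmgb2. None passed (edgeR adjusted p = 0.675 to 0.970, unadjusted p under 0.05 for 0, and for 96 of all 1109 genes). Co-culture held 55007 of the NSC34 reads and control 15858, so genes reached 10 reads mostly through co-culture, and their signs cannot be read as a result: all 11 were above 0, in a fit where 29.9% of all genes were below 0. Tk1 had a log2 fold change of 1.41 (95% interval -0.20 to 3.01), Rrm1 1.79 (-0.43 to 4.01), Cenpf 0.78 (-0.78 to 2.33), Hmgb2 0.70 (-0.32 to 1.72) and Mcm4 0.10 (-1.49 to 1.69), beside a median of 0.37 over all genes. Without controls 1 and 6 Mcm4 was below 0. With no filter, where 0% of 7557 genes were called, 29 of the 34 genes with reads were above 0 with a median of 1.07, close to the median of 0.92 over all genes, and 12 of them had 0 control reads, so their fitted values depend on the prior count. Genes of the same processes outside the 36 did not all lie above the rest: with at least 10 reads 6 of 10 other replication genes (median 0.26) and 5 of 7 other mitosis genes (median 0.45) were above 0.

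Whether co-culture acted differently on the lines was tested as an interaction. At the main filter it ran on 49 genes, none of the 36, with 0% called. With at least 10 reads in each table it ran on 1091 genes, of which 0 (0%) were called, and held the same 11 genes, 0 of them called. An unadjusted edgeR p under 0.05 was found for 4 of the 11 and for 126 of all 1091 genes. The C2C12 fold change minus the NSC34 fold change was below 0 for all 11 and for 71.4% of all genes in that fit (median -0.42), and since the same filter chose the genes, that sign is no support for a difference. The smallest p-values were those of Tk1 (-2.09, SE 0.89; edgeR adjusted p = 0.326) and Cdk1 (-1.88, SE 0.80; 0.326), followed by Plk1 (-2.53, SE 1.14; 0.357) and Hmgb2 (-0.95, SE 0.46; 0.401). Mcm4 differed least (-0.53, SE 0.75; 0.849). None of the 36 genes passed a test of the difference.

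**Figure D5:**
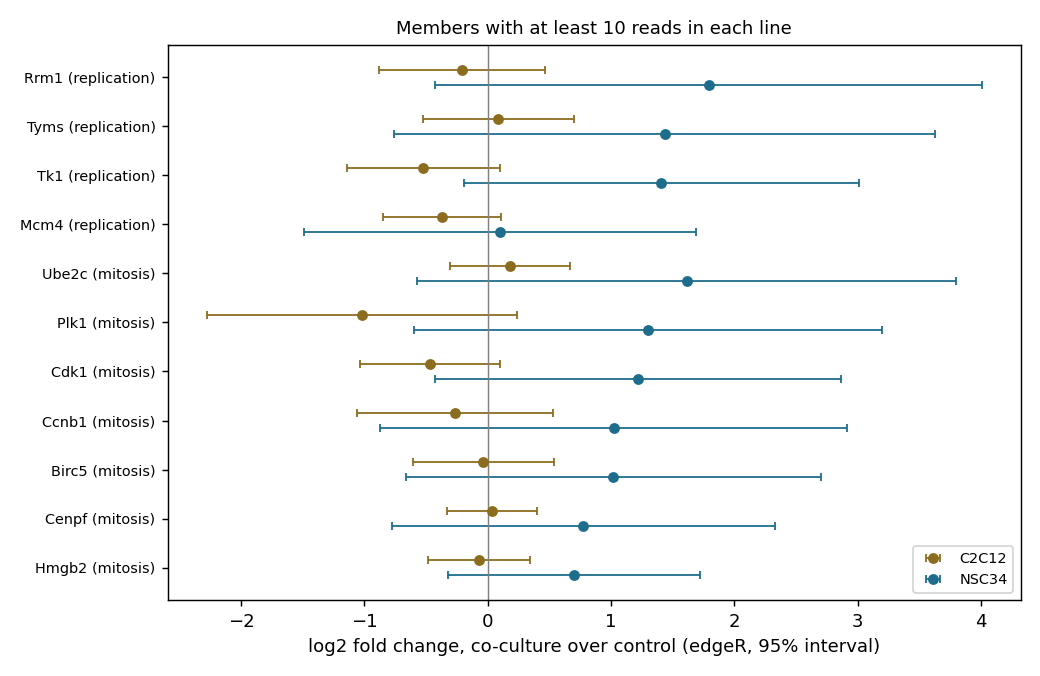
Log2 fold change (co-culture over control, 95% interval, edgeR with at least 10 reads in total) of the 11 genes that could be fitted in both lines. NSC34 points all lie above 0, the side that the filter on total reads favours, with wide intervals that span 0, and C2C12 points lie near or below 0.

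Between the lines, the 36 genes made up 0.120% of pooled reads in C2C12 controls and 0.347% in NSC34 controls. A test across 818 genes, of which 33.7% were called, held Cenpf alone of the 36, which did not pass (log2 fold change -0.11, C2C12 over NSC34, edgeR adjusted p = 0.929), in a fit whose median over all genes was 0.77 (0.58 with RLE factors). The sign of Cenpf is not settled: its log2 fold change was 1.46 with at least 10 reads in total (adjusted p = 0.0894) and 0.0852 to 0.94 with any 1 NSC34 control left out. Hmgb2 was at 102 CPM in pooled C2C12 controls and 820 CPM in pooled NSC34 controls. It did not pass the main filter, but was called lower in C2C12 in all 6 fits that left out 1 NSC34 control (log2 fold change -2.49 to -1.96, edgeR adjusted p = 0.00035 to 0.00657). These 6 fits share most of their libraries and are not separate results, and the share of all genes called lower in them is not given here. Over all genes, 47 to 513 were called either way in the 12 fits that left out 1 control of either line. In the main fit, which did not hold Hmgb2, 29 of 818 genes were called lower. Hmgb2 was not called in the fit with at least 10 reads in total (-1.06, adjusted p = 0.103), where 0.469% of genes were called lower. Line and depth cannot be told apart in this comparison, since every NSC34 control had fewer reads than any C2C12 control.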

How the data were processed

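The series holds raw counts, deposited by the authors as whole numbers of reads per Ensembl transcript, 1 table per cell line with 1 column per library. The build is GRCm38, per the submitters' processing notes; aligner, counting program and strandedness: not given in the sources used here. Columns were matched to samples by library name, with 0 left unmatched. Identifiers without a version were looked up in GENCODE M21 (37415 of 37677 C2C12 and 10374 of 10427 NSC34 transcripts matched; the rest held 0.224% and 0.238% of reads) and summed per gene.

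Each line was tested alone with edgeR 4.0.16 in R 4.3.3 (filterByExpr by group, TMM, quasi-likelihood F test, Benjamini-Hochberg over all tested genes, threshold 0.05), which left 2570 C2C12 genes (88.3% of reads) and 49 NSC34 genes (28.2%). The difference between lines was an interaction term over all 4 groups. Levels are CPM of all reads. Count intervals are Clopper-Pearson at 95%, and a count of 0 allows up to 3 reads; reads carry no molecular identifiers. Alternatives were RLE factors, library totals, other filters, DESeq2 1.42.0, limma 3.58.1 (voom with quality weights), the replicate number as a block, a length correction (loess of span 0.5), shallow controls left out and each library left out. Of these, filters combined with left-out libraries, counts per transcript and shares without Top2a or Hmgb2 were added after seeing the data. The fit of each line at the main filter was also run on simulated counts with 1 common dispersion. Its outcome is not given here, and the fits with other filters were not simulated.

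The 36 genes, the other lists and the markers were chosen with earlier results of these data known. All 36 were accounted for, with values by library or by range where at least 20 reads or the filter were reached. Of the other 2 lists together, genes past the threshold were to be named, and the 2 of lowest p among those higher and among those lower in C2C12 co-culture. Counts differed beyond sampling noise in all 59 pairs of libraries of a group that a chi-square test could compare; NSC34 controls 1 and 6, with 6 genes to compare, were not tested. Promoter windows are those of RefSeq for GRCm38.p6.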

Additional observations from a re-analysis of the deposited data

Results flagged for a closer look

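Hmgb2 in NSC34 controls had 1 library far from the others: control 6 stood at 3650 CPM, from 3 of 822 reads, while the other 5 controls lay between 0 and 998 CPM. Among 78 groups of 6 libraries checked in this way this was the 1 found, where chance gives about 1 in 20, or 3.9.

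The share of reads on the 36 genes moved in opposite directions in the lines. Co-culture minus control was -0.0255 percentage points in C2C12 and 0.238 percentage points in NSC34, with every co-cultured library below the control mean in C2C12 and above it in NSC34. Of 9 values checked for this, only the share of all 36 genes was flagged. In NSC34 the replication share of co-culture library 6 (0.0713%) lay below the control mean (0.0777%). The mitosis share of co-culture library 4 (0.166%) also lay below its control mean (0.219%). The NSC34 groups overlapped, and the genes were listed with earlier results of these data known, so this gives no separate support for a difference. The difference between the lines was not tested for the share.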

How the results depend on the processing

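The count of the 36 genes called in C2C12, 1 (Top2a), was 0 under limma-voom, under the replicate block, with the length trend removed and with the 2 shallow controls left out, and 0 to 1 with 1 library left out. For all genes the C2C12 count of 37 was 58 with library totals, 106 with no filter, 57 with at least 10 reads, 10 without the 2 shallow controls and 11 to 74 with 1 library left out. In NSC34 and for the difference between lines the count of these genes was 0 under every alternative run. Between lines in control it was 0 to 1 with 1 library left out (the 1 being Hmgb2), where 47 to 513 of all genes were called. Cenpf turned to 0.0523 with no filter, 0.0343 with at least 10 reads, 0.00843 with limma-voom and 0.14 with the length trend removed, and ranged over -0.14 to 0.0574 with 1 library left out. Birc5 turned to 0.28 without the 2 shallow controls (-0.22 to 0.0870 with 1 library left out). With 1 library left out Pcna ranged over -0.20 to 0.0409 and Ube2c over -0.0135 to 0.17. Between lines Cenpf was 1.46 with at least 10 reads and 0.0852 to 0.94 with 1 NSC34 control left out. The cause was not tested. Mcm4, Rrm2, Tk1, Hmgb2 and Top2a kept their sign under all 21 alternatives. The C2C12 mitosis share difference, -0.0154 percentage points, was -0.0097 without Top2a. Deviations from the group means in same-numbered libraries had correlations of -0.05 to 0.10 in C2C12 and -0.25 to 0.32 in NSC34. The labels do not state whether same-numbered libraries are pairs. With the replicate number as a block, 0 of the 36 genes and 26 over all genes were called in C2C12, and why the counts fell was not tested. Depth limits the NSC34 values: 28 of the 34 genes with reads had under 20.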
